A study of Mus musculus with 2 samples.

Results

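NK cells of the mouse lung were described in 2 single-cell RNA libraries, 1 labelled control and 1 labelled fibrosis. A cell was taken as an NK cell if at most 10% of its UMIs (unique molecular identifiers, 1 per captured mRNA molecule) lay on mitochondrial genes and if at least 2 of the 6 genes Ncr1, Klrb1c, Klra8, Klre1, Klra4 and Eomes had a UMI. It also had at most 1 UMI over Cd3d, Cd3e and Cd3g and none of Cd79a, C1qa or Marco. This rule took 540 of 15453 deposited cells, 355 of 8280 in the control library and 185 of 7173 in the fibrosis library. Because the rule reads measured values, the levels of those genes describe how the cells were chosen and are not findings.

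Each library came from the lungs of 1 male C57Bl/6J mouse aged 3 months, so no value has a replicate check and no test between the groups was made. The labels state that 100 µg of TiO2 or of crocidolite asbestos was given into the trachea and that lungs were taken at day 14. They name both particles for both mice and tie neither to a mouse, so the groups carry only the label names control and fibrosis. After perfusion the lungs were dissociated with dispase and DNase I, red cells were lysed with no sort or enrichment named, and cells were captured with 10x Genomics 3′ V2 chemistry. Crocidolite is a fibrous asbestos mineral known to cause lung fibrosis, and TiO2 particles are a common control for it. All intervals given are exact 95% intervals that cover counting error only, not the difference between mice. Intervals of summed UMIs and of their ratios treat each UMI as an independent count. They therefore also leave out the spread between cells and are too narrow where few cells hold most UMIs of a gene.

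NK cells are innate lymphocytes that kill infected or transformed cells by releasing granules of perforin and granzymes. They read the surface of other cells with germline-encoded receptors, many of which bind MHC class I molecules, and inhibitory and activating signals are summed before a granule is released. In the lung most NK cells are mature circulating cells that also secrete chemokines and interferon-γ.

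The promoters of 2 genes that mark these cells are shown because both hold the core letters bound by RUNX factors, which are required for NK cell development. Ncr1 encodes the activating receptor NKp46 and lies at chr7:4337724-4345164 on the plus strand (GRCm38). Gzma encodes granzyme A, a granule protease, and lies at chr13:113093825-113100981 on the minus strand. The 250 bases before each start are from RefSeq (GRCm38.p6), chr7:4337474-4337723 on the plus strand and chr13:113100982-113101231 on the minus strand, written 5′ to 3′ along the gene, with TGTGGT or its reverse complement ACCACA in capitals.
Ncr1: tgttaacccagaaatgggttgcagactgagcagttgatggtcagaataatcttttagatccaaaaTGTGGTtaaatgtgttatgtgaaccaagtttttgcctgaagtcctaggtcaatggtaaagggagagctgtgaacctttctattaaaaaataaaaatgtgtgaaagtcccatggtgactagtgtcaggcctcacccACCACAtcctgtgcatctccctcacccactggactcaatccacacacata
Gzma: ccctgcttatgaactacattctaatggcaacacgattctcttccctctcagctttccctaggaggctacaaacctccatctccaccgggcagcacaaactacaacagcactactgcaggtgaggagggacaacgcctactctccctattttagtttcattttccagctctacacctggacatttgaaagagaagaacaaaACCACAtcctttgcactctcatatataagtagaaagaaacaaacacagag
In both windows the run ACCACATCCT begins 50 bases before the start. It was found by comparing these 2 windows and occurs, on either strand, in 20 of 32851 promoters of this length (0.0609%). The shorter TGTGGT, on either strand, was in 6 of the 14 NK genes with an entry (42.9%), of 21 looked up, and in 14% of all promoters. A gene was counted if any of its entries held the letters, while the 14% counts single entries, so these shares differ in unit. Besides Ncr1 and Gzma it was in Ccl3, Klrb1a, Klrb1c and Klre1. GGTGTGA, letters of T-box factors such as Eomes, and AGGAAGT, letters of ETS factors, were in none of the 14, and in 3.33% and 7.69% of all promoters. These are matches of exact letters and show no binding. Other letters that the same factors may bind were not searched, so an absence covers the printed letters only.

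Of the markers of the label, Gzma was not read by the rule, and it separated the chosen cells from other lymphocytes. At an equal depth of 1000 UMIs per cell, Gzma was present in 92.7% of control NK cells (89.5 to 95.2) and 87.6% of fibrosis NK cells (81.9 to 92.0). Without thinning these shares were 96.1% and 95.1%. T cells were taken as cells with at least 2 Cd3 UMIs and at most 1 of the 6 genes. B cells were taken as cells with at least 2 Cd79a UMIs, no Cd3 UMI and none of the 6 genes. The thinned Gzma shares were 2.61% and 3.63% in T cells and 1.37% and 0.625% in B cells. Without thinning, T cells held 315 and 444 Gzma UMIs, in 6.3% and 5.9% of cells. B cells held 43 and 12, in 4.21% and 2.5% of cells. Only the B-cell values are read as background, because T cells held far more Gzma UMIs in a small share of cells. Median UMIs per cell in control and fibrosis were 2186 and 2666 in NK cells, 2743 and 2763 in T cells, and 2005 and 2753 in B cells. The 9 T-cell markers in the files, of 13 listed, summed to 53.7 and 33.6 CPM (UMIs scaled to a common total) in NK cells against 2813 and 2278 CPM in T cells. The Cd3 genes are T-cell markers that both definitions read, so this contrast was partly fixed by the rules. The T-cell class also leaves out cells with 2 or more of the 6 genes, and the B-cell class cells with any of them. This bears on the Gzma contrast too. Within these limits, Gzma was the marker of the label that most members carried without the rule reading it.

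The edges of the rule were looked at with the same gene. Gzma stood at 5691 and 4113 CPM in the 42 control and 23 fibrosis members with exactly 2 of the 6 genes. It stood at 99.6 and 126 CPM in the 102 and 114 cells just outside, with exactly 1 of them. Another 26 and 15 cells met the rule except for 2 or more Cd3 UMIs, and 30 and 52 cells except for Cd79a, C1qa or Marco. Those last cells had 6582 and 2251 CPM of Gzma, so some cells rich in NK transcripts lie outside the members, more of them in the fibrosis library.

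A part of the members carried RNA of a second lineage, and this part was larger in the fibrosis library. A member was counted so when its UMIs over the markers of any of 11 other lineages exceeded the library's typical NK share of them by 3 Poisson SDs plus 5 UMIs, a rule chosen after seeing the data. This held for 75 control members (21.1%, 17.0 to 25.7) and 64 fibrosis members (34.6%, 27.8 to 41.9). The counts were unthinned, and the added 5 UMIs do not scale with depth. Fibrosis members were deeper, with a median of 2666 UMIs against 2186, and these shares were not compared at equal depth. Mononuclear phagocyte RNA was the most frequent, in 40 and 35 cells, followed by epithelial RNA in 26 and 20, MHC class II RNA in 14 and 21, and neutrophil RNA in 20 and 8. Endothelial RNA was in 4 and 10 cells. These members had more UMIs, with medians of 4824 and 4258 against 1974.5 and 2344 in the others, and less granzyme A transcript, with 3921 and 2790 CPM of Gzma against 10679 and 8485 CPM. Whether such droplets hold 2 cells or 1 cell with RNA from outside was not tested. Removing in each library the expected share of droplets by doublet score took 49 control and 28 fibrosis members, all of them among these cells. Results are therefore given for all members and for the 280 control and 121 fibrosis members without excess RNA. In those the ratios of the lineage markers themselves are shaped by that choice.

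**Figure D1:**
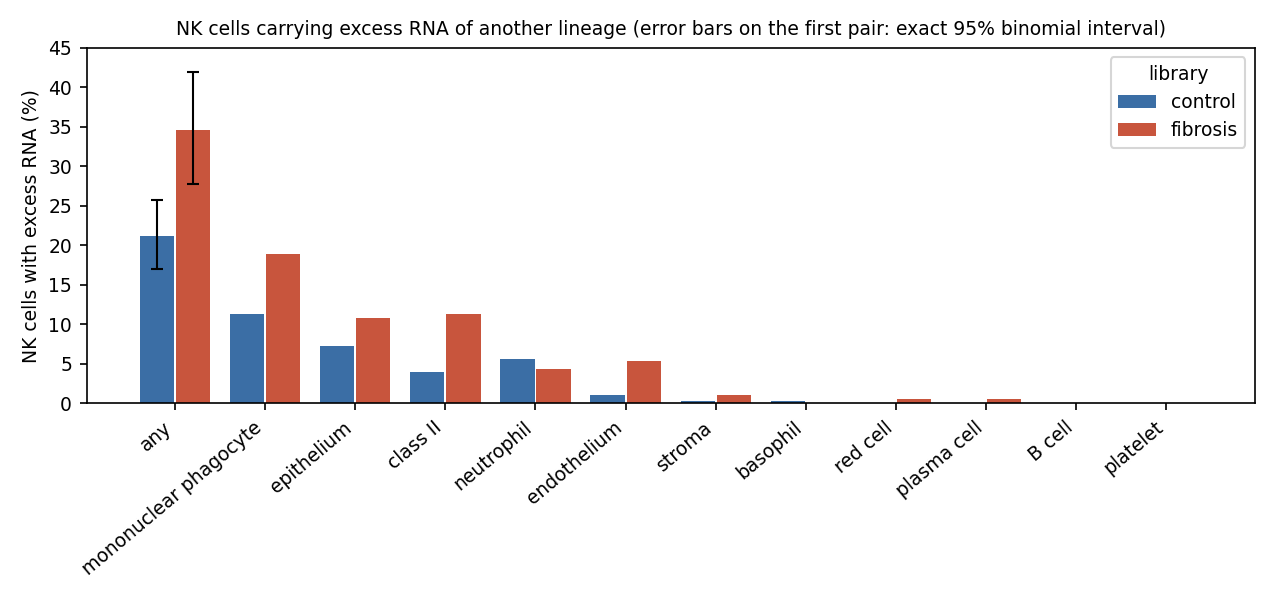
Percentage of NK cells (vertical axis) in the control library (blue) and the fibrosis library (red) that carried excess RNA of any of 11 other lineages and of each lineage (horizontal axis). The first pair of bars, with exact 95% binomial intervals, stands at 21.1% and 34.6%, and mononuclear phagocyte RNA gives the tallest single pair.

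NK cells made up a smaller share of the fibrosis suspension than of the control suspension. They were 355 of 8026 cells within the mitochondrial limit in the control library (4.42%, 3.98 to 4.90) and 185 of 6945 in the fibrosis library (2.66%, 2.30 to 3.07). The difference was -1.76 percentage points (-2.36 to -1.16). Without members carrying excess RNA the shares were 3.49% and 1.74%. The libraries were deposited with different depth floors, their lowest cells having 1460 and 1915 UMIs, and NK cells lie near the bottom of that range. With the floor of 1915 UMIs applied to both, 222 control NK cells remained and the shares were 3.37% and 2.66%, a difference of -0.71 points (-1.30 to -0.12). With the same floor and only cells with a Ptprc UMI (CD45, the pan-leukocyte antigen) as the denominator, the NK share of cells was 4.41% and 4.12%, a difference of -0.29 points (-1.18 to 0.60). Most of the difference thus went with the depth floor, and among cells with Ptprc above that floor none was detectable. With only the mitochondrial limit and no depth floor, T cells stood at 8.11% and 9.52%, and B cells at 11.8% and 6.91%. Among cells with a Ptprc UMI, also without the floor, T cells were 8.74% and 11.6% and B cells 10.3% and 7.89%. The common floor was not applied to these 2 classes. The libraries shared 89 cell barcodes, 3 of them on NK cells in each library and none on an NK cell in both.

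UMIs were summed over the NK cells of each library, 1023710 in control and 685120 in fibrosis, and scaled to CPM. Members with excess RNA held 376185 of the control UMIs and 354429 of the fibrosis UMIs, a larger part of the fibrosis sum. The CPM of NK genes over all members are thus diluted unequally between the libraries. These are levels of 3′ ends, comparable between libraries and not between genes. A gene was called higher or lower where it had at least 20 UMIs in all, its ratio was at least 2-fold and the exact interval lay on that side of 1. Of 7326 genes, 495 were called higher in fibrosis (6.76%) and 175 lower (2.39%). Over members without excess RNA, 115 of 4906 genes were higher (2.34%) and 101 lower (2.06%). At any fold, with only the interval off 1, 10.3% of genes were higher and 9.57% lower over all members, and 5.1% and 6.54% over members without excess RNA. The interval is narrower for genes with more UMIs, so it leaves 1 at smaller folds in abundant genes. Counts of such intervals in the gene lists below therefore depend on abundance, which was not matched. The median log2 ratio over all genes was 0.01 and -0.04. By the same rule 6.64% of genes were higher and 1.36% lower in T cells, and 7.55% and 1.47% in B cells. In T cells and B cells without excess RNA, 4.77% and 4.05% were higher and 0.998% and 1.33% lower.

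The receptors used for the selection were mostly at lower levels in the fibrosis members, which is description only. Klre1 stood at 911 CPM in control and 632 CPM in fibrosis, Klra4 at 766 and 521, Klrb1c (NK1.1) at 550 and 369, and Ncr1 at 508 and 381. Klra8, which encodes the activating receptor Ly49H that recognises a protein of mouse cytomegalovirus, stood at 583 and 613 CPM. Without members carrying excess RNA Klra8 was at 774 and 1016 CPM, and Klra4 at 1019 and 792 CPM. Eomes, a T-box transcription factor that defines conventional NK cells, stood at 171 and 146 CPM, and at 213 and 218 CPM without excess RNA.

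Ly49 receptors are inhibitory or activating receptors for MHC class I encoded by the Klra genes, and each NK cell is known to switch on its own subset of them. These genes are close paralogs, and how the counting divided reads between them is not known, so each value is uncertain. Of 11 Klra genes 7 had enough UMIs, Klra1 was called lower and none higher. Klra1 fell from 59.6 to 29.2 CPM (61 to 20 UMIs), but without excess RNA its log2 ratio was -0.28 (-1.16 to 0.49). Klra7 (Ly49G) stood at 399 and 331 CPM, and at 537 and 541 CPM without excess RNA. Klra9 (Ly49I) stood at 271 and 235 CPM and Klra3 (Ly49C) at 148 and 128 CPM, and without excess RNA their log2 ratios were -0.08 and -0.05. The list's median log2 ratio was -0.27, and -0.07 without excess RNA.

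Single cells differed in how many of the 5 most frequent Ly49 genes, Klra3, Klra4, Klra7, Klra8 and Klra9, were detected. At 1000 UMIs, 22.8% of control and 27.6% of fibrosis NK cells had none, 35.8% and 33.5% had 1, and 28.2% and 21.1% had 2. Cells with 3 of them were 10.7% in control (7.69 to 14.4) and 16.8% in fibrosis (11.7 to 22.9). Without excess RNA that class held 12.1% (8.56 to 16.6) and 23.1% (15.96 to 31.7), and without thinning 24.2% and 34.1% of all members. Because 2 of the 5 genes are in the selection rule, this distribution is partly set by it. For pairs outside the rule, co-detection at 1000 UMIs was near the product of the single shares. Klra7 and Klra9 met in 20 control cells against 21.6 from that product, and in 8 fibrosis cells against 8.76. Klra3 and Klra7 met in 11 control cells against 12.6 and in 6 fibrosis cells against 6.08. Without thinning, Klra7 and Klra9 met in fewer cells than that product, 46 against 55.4 in control and 27 against 36.9 in fibrosis. Without excess RNA these were 35 against 44.9 and 18 against 25.1. Unthinned over all members, Klra3 and Klra7 met in 33 and 25 cells against 37.4 and 25.7. Klra3 and Klra9 met in 34 and 15 against 30.2 and 17.9.

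Of 18 receptors outside the Ly49 family none was called over all members. An interval below a ratio of 1 was found for 9 and one above it for none, and without excess RNA for 6 and 2. Among all genes tested, 9.57% lay below and 10.3% above, and 6.54% and 5.1% without excess RNA. Klrk1, the activating receptor NKG2D, stood at 925 CPM in control and 585 CPM in fibrosis, a log2 ratio of -0.66 (-0.83 to -0.49), and at 1203 and 892 CPM without excess RNA. Klrd1 (CD94), the partner chain of the NKG2 receptors, stood at 887 and 574 CPM, a log2 ratio of -0.63 (-0.80 to -0.46), and -0.42 without excess RNA. Its inhibitory partner Klrc1 (NKG2A) went the other way at 93.8 and 108 CPM, and at 127 and 181 CPM without excess RNA, a log2 ratio of 0.52 (0.01 to 1.02). Klrg1, an inhibitory receptor of mature cells, stood at 110 and 107 CPM, a log2 ratio of -0.05 in both sets. Cd226 (DNAM-1) was called higher without excess RNA only, at 9 and 13 UMIs. The median log2 ratio of the list was -0.50, and -0.23 without excess RNA. In T cells and B cells it was also below 0, at -0.21 and -0.24, and at -0.21 and -0.33 without excess RNA.

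Several signalling adaptors also stood lower in fibrosis. Tyrobp (DAP12), the adaptor of activating Ly49 receptors, stood at 3514 CPM in control and 2348 CPM in fibrosis, a log2 ratio of -0.58 (-0.67 to -0.50), and at 3487 and 2991 CPM without excess RNA. Fcer1g, the chain used by NKp46 and CD16, stood at 2644 and 1703 CPM, and at 2865 and 2220 CPM without excess RNA. Both are also expressed by phagocytes, whose RNA was in some members. Cd247 (CD3ζ), which pairs with Fcer1g, fell from 114 to 49.6 CPM, a log2 ratio of -1.19 (-1.80 to -0.64). Without excess RNA Cd247 fell from 159 to 69.6 CPM, a log2 ratio of -1.17 (-1.91 to -0.53). In T cells its log2 ratio was -0.20, and -0.07 without excess RNA. B cells had 6 and 0 UMIs of it, and with the mean of the T-cell and B-cell ratios subtracted the Cd247 value became 0.50. Of 18 adaptors and kinases Cd247 was the only one called, in both sets of cells. The list's median log2 ratio was -0.41 in NK cells, -0.25 in T cells and -0.40 in B cells. Without excess RNA these medians were -0.19, -0.16 and 0.08. Hcst (DAP10), the adaptor of NKG2D, was at 758 and 756 CPM without excess RNA, and the kinase Lck at 531 and 339 CPM, a log2 ratio of -0.65 (-0.97 to -0.34).

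Of 19 granule genes 10 had an interval below a ratio of 1 and 1 an interval above it, and without excess RNA 8 and 2 did. The shares over all genes tested were 9.57% below and 10.3% above, and 6.54% and 5.1% without excess RNA. Abundant genes such as Gzma leave 1 at small folds, so the list and all genes are not alike in this. Gzma stood at 8196 CPM in control (8021 to 8373) and 5539 CPM in fibrosis (5364 to 5718), a log2 ratio of -0.57 (-0.62 to -0.51). Without excess RNA Gzma was at 10679 and 8485 CPM, a log2 ratio of -0.33 (-0.40 to -0.27), so the difference shrank and kept its direction. Gzmb, granzyme B, stood at 816 and 584 CPM, and at 1041 and 850 CPM without excess RNA, a log2 ratio of -0.29 (-0.50 to -0.09). Nkg7, a granule membrane protein needed for degranulation, stood at 3899 and 2473 CPM, and at 5147 and 3692 CPM without excess RNA. Prf1, the pore-forming perforin, was at 70.3 and 94.9 CPM, a log2 ratio of 0.43 (-0.07 to 0.94), and at 88.0 and 139 CPM without excess RNA, a log2 ratio of 0.66 (0.07 to 1.25). Gzma and Gzmb thus lay below 1 and Prf1 above it in the same cells.

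Cma1, a chymase gene of mast cells that mature NK cells also transcribe, was called lower over all members. Cma1 fell from 272 to 124 CPM (278 to 85 UMIs), a log2 ratio of -1.12 (-1.50 to -0.77). Without excess RNA Cma1 stood at 344 and 194 CPM, a log2 ratio of -0.82 (-1.26 to -0.42), short of 2-fold. At 1000 UMIs Cma1 was present in 23.7% of control NK cells (19.3 to 28.4) and 10.3% of fibrosis NK cells (6.30 to 15.6), and without thinning in 40.3% and 24.3%. No thinned T cell or B cell of either library had a Cma1 UMI. The exact upper limits for T cells and B cells were 0.565% and 0.387% in control, and 0.557% and 0.766% in fibrosis. In NK cells the intervals of the 2 libraries did not overlap for Cma1. Stx11, a syntaxin of granule release, was the other granule gene called lower, and none was called higher. Stx11 fell from 44 to 9 UMIs, a log2 ratio of -1.65 (-2.93 to -0.66), and without excess RNA from 28 to 3 UMIs, a log2 ratio of -2.06 (-4.61 to -0.56). In those cells the lysosomal membrane gene Lamp1 was called higher, at 43.2 and 90.7 CPM. The median log2 ratio of the list was -0.45 in NK cells, and -0.29 without excess RNA. The same list was at 0.18 in T cells and 0.11 in B cells, and at 0.21 and 0.03 without excess RNA. The granule median was -0.28 with the same depth floor in both libraries and -0.21 with the rule applied after thinning.

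Per cell, the median and both quartiles of Gzma were lower in fibrosis. Drawn down to 1000 UMIs, control NK cells held a median of 9 Gzma UMIs with quartiles of 4 and 15, and fibrosis NK cells a median of 6 with quartiles of 2 and 10. The highest cells had 37 and 35. Cells with 0 to 3 Gzma UMIs were 22.3% of control and 38.9% of fibrosis NK cells, and cells with 16 to 19 were 11.8% and 3.24%. Without excess RNA the Gzma medians were 11 and 7, and cells with 0 to 3 were 15.7% and 28.1%.

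**Figure D2:**
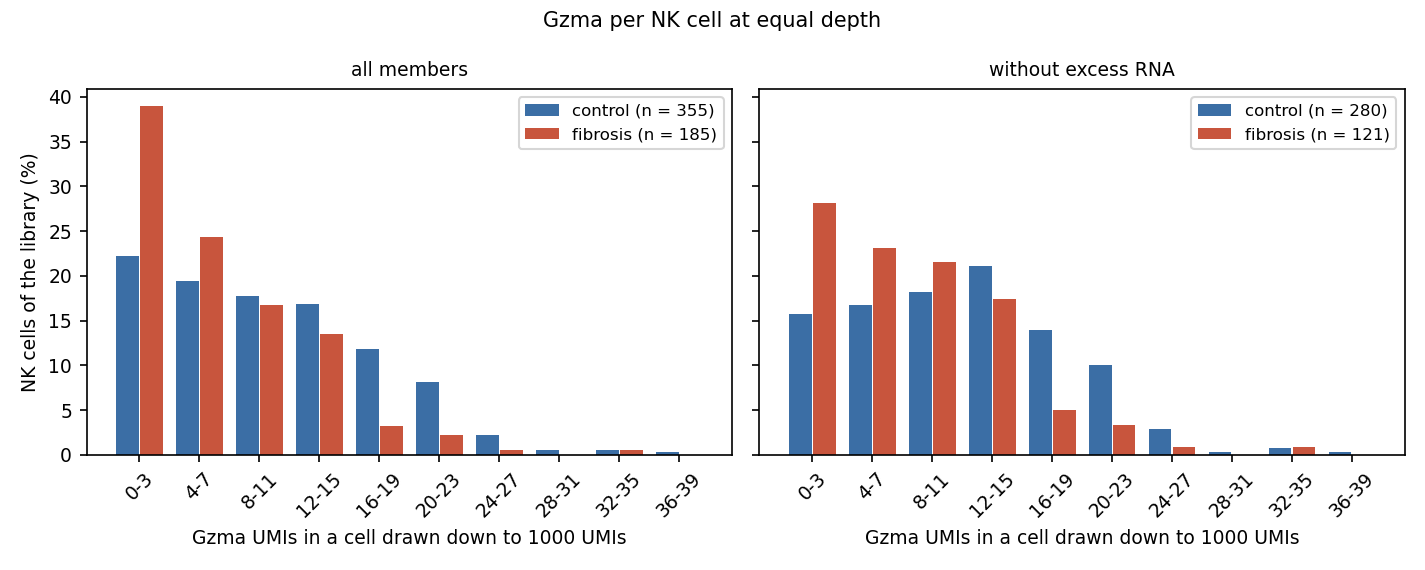
Distribution of Gzma UMIs per NK cell after drawing each cell down to 1000 UMIs (horizontal axis), as the percentage of the library's NK cells (vertical axis), for the control library (blue) and the fibrosis library (red). The left panel shows all members and the right panel members without excess RNA, and in both the lowest bin is taller in fibrosis and the bins of 16 to 23 UMIs are taller in control.

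Among secreted factors, Ccl5, a chemokine that attracts T cells and monocytes, stood at 15843 CPM in control and 11623 CPM in fibrosis, a log2 ratio of -0.45 (-0.49 to -0.41), and at 20830 and 17932 CPM without excess RNA, a log2 ratio of -0.22. It was present in 97.7% and 97.8% of NK cells at 1000 UMIs, and in 99.2% and 98.4% without thinning, against 20.7% and 16.04% of thinned T cells and 3.68% and 2.08% of thinned B cells. The chemokines Ccl3 and Ccl4 pointed the other way, but over all members their intervals spanned 0. Ccl3 stood at 146 and 156 CPM, a log2 ratio of 0.10 (-0.27 to 0.47). Without excess RNA Ccl3 was at 179 and 254 CPM, a log2 ratio of 0.51 (0.08 to 0.92). Ccl4 stood at 267 and 301 CPM, a log2 ratio of 0.17 (-0.09 to 0.44). Without excess RNA Ccl4 was at 314 and 432 CPM, a log2 ratio of 0.47 (0.15 to 0.78). Ifng, interferon-γ, stood at 61.5 and 49.6 CPM, a log2 ratio of -0.30 (-0.96 to 0.31), and Xcl1, which attracts dendritic cells, at 231 and 216 CPM, and without excess RNA their log2 ratios were -0.25 and 0.18. Tgfb1, a profibrotic cytokine, was at 165 and 87.6 CPM, a log2 ratio of -0.91 (-1.36 to -0.48), and at 150 and 75.6 CPM without excess RNA, a log2 ratio of -0.97 (-1.68 to -0.34). None of the 9 secreted factors tested was called in either direction, nor any of the 8 tested without excess RNA.

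**Figure D3:**
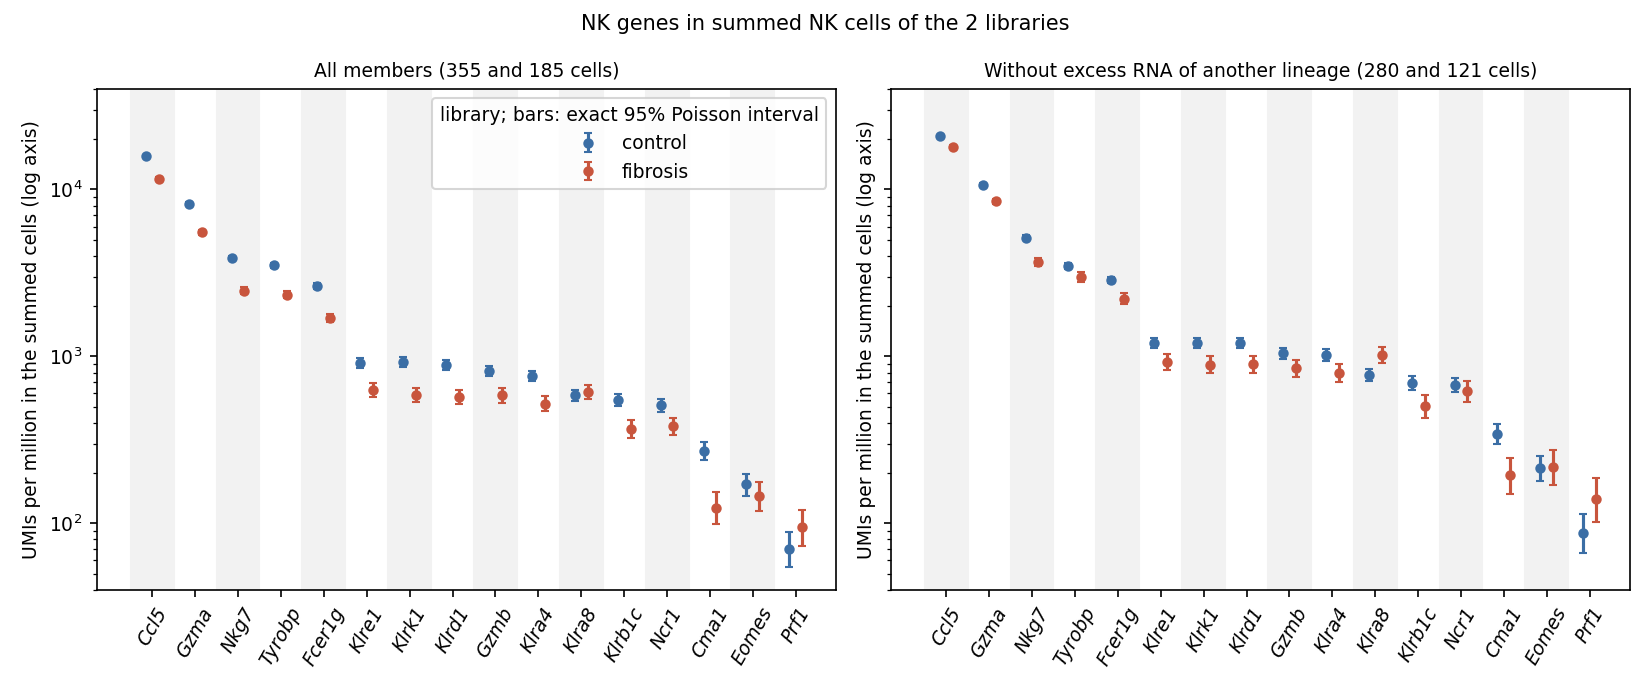
CPM (log axis) of 16 NK genes in the summed NK cells of the control library (blue) and the fibrosis library (red), with exact 95% Poisson intervals, for all members on the left and members without excess RNA on the right. Ccl5, Gzma and Nkg7 lie lower in fibrosis in both panels, and Klra8 and Prf1 lie higher in fibrosis in both.

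Of 20 transcription factors of the lineage 5 had an interval below a ratio of 1 and 1 an interval above it, and without excess RNA 3 of 17 lay below and none above. For all genes tested these shares were 9.57% and 10.3%, and 6.54% and 5.1% without excess RNA. Tbx21 (T-bet), which drives terminal maturation, stood at 112 and 109 CPM, a log2 ratio of -0.03 (-0.48 to 0.39), and 0.11 without excess RNA. Zeb2, which acts with T-bet, stood at 266 and 178 CPM, a log2 ratio of -0.57 (-0.90 to -0.26), and at 262 and 191 CPM without excess RNA. Id2, which NK cells and other innate lymphocytes need, stood at 1146 and 877 CPM, and at 1436 and 1116 CPM without excess RNA. Rora was called higher and Lef1 lower, and no factor was called without excess RNA. Rora had 8 and 32 UMIs, a log2 ratio of 2.51 (1.43 to 3.91), and over all T cells and B cells it was also called higher, at 1.25 and 1.39. Lef1 had 36 and 9 UMIs. The list's median log2 ratio was -0.25, and 0.01 without excess RNA. In T cells and B cells it was 0.24 and -0.07, and 0.49 and 0.05 without excess RNA.

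Maturation of mouse NK cells runs from cells with CD27 through double-positive cells to cells with CD11b (Itgam) alone. Cd27 stood at 94.8 and 52.5 CPM, a log2 ratio of -0.84 (-1.44 to -0.29), and Itgam at 113 and 78.8 CPM, a log2 ratio of -0.52 (-1.02 to -0.05), so both ends were lower. Without excess RNA Cd27 was at -0.79 (-1.55 to -0.13) and Itgam at -0.31, with an interval that spans 0. Of all members, unthinned, 15.5% of control and 14.1% of fibrosis cells had Cd27 only, 20.3% and 21.6% Itgam only, and 58.6% and 61.1% neither. Thinned to equal depth, 11.5% (8.42 to 15.3) and 5.41% (2.62 to 9.72) had Cd27 only. Itgam only then stood at 10.4% and 7.03%, and neither at 77.5% and 87.6%. Without excess RNA, Cd27 only was 17.5% and 14.9% unthinned, and 12.9% and 7.44% thinned. Itgam only was 17.1% and 19.8% unthinned, and 10.4% and 9.09% thinned. Cd27 and Itgam were too sparse to place single cells. Of 11 late genes 7 had an interval below 1, and 5 without excess RNA, with medians of -0.48 and -0.29. Among all genes tested, 9.57% had an interval below 1, and 6.54% without excess RNA. Over all T cells and B cells the medians of the same list were 0.20 and -0.07, and 0.30 and 0.23 without excess RNA. The late median was -0.24 with the same depth floor in both libraries and -0.16 with the rule applied after thinning. Ly6c2, a surface protein of mature cells and of monocytes, stood at 442 and 235 CPM, and at 332 and 203 CPM without excess RNA. Of 10 early genes Il7r alone was called, lower at 29 and 8 UMIs, and without excess RNA none was, with a median of 0.01.

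Genes of tissue-resident NK cells and type 1 innate lymphoid cells, neighbours of NK cells that share NK1.1 and NKp46, were scarce. Of 14 such genes 5 could be tested, and Itga1 (CD49a), a defining one, had 7 and 3 UMIs. Tmem176a was called higher, at 45.9 and 112 CPM, and also rose in T cells and in B cells, at log2 ratios of 1.27 and 1.68. Without excess RNA its log2 ratio was 0.44 (-0.72 to 1.52). Markers of type 2 innate lymphoid cells summed to 77.2 and 174 CPM in NK cells and to 151 and 350.5 CPM in T cells.

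Of 16 trafficking receptors 9 had an interval below a ratio of 1 and 1 an interval above it. For all genes tested these shares were 9.57% and 10.3%, and 6.54% and 5.1% without excess RNA. S1pr4, a receptor for sphingosine 1-phosphate, fell from 161 to 78.8 CPM, a log2 ratio of -1.02 (-1.50 to -0.58), and stood at 218 and 142 CPM without excess RNA. S1pr5, which lets mature NK cells leave marrow and lymph nodes, stood at 117 and 83.2 CPM, and at 153 and 127 CPM without excess RNA. Itgal, the LFA-1 integrin chain, stood at 221 and 258 CPM, and at 239 and 360 CPM without excess RNA, a log2 ratio of 0.59 (0.23 to 0.94). S1pr4 was the only one called, and without excess RNA none was called, 4 intervals lay below 1 and 1 above it. The list's median log2 ratio was -0.43, and -0.11 without excess RNA. In T cells and B cells it was -0.12 and -0.29, and -0.08 and 0.11 without excess RNA. Of 14 cytokine receptors Tgfbr1 was called higher on 10 and 18 UMIs, with 4 and 4 UMIs left without excess RNA. Il2rb, the shared chain for IL-2 and IL-15, stood at 286 and 241 CPM, and at 385 and 372 CPM without excess RNA.

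Interferon-response genes were called in both directions in the full set and only lower without excess RNA. Of 17 tested, Irf1, Ifi27l2a and Gbp4 were called lower and Isg20 and Ly6a higher. Of 12 without excess RNA, Irf1 and Ifi27l2a were lower and none higher, and the median log2 ratio was -0.61, against -0.19 in the full set. The list was also below 0 in T cells and B cells, at -0.38 and -0.31, and at -0.19 and -0.13 without excess RNA. Irf1, a factor induced by interferon-γ, fell from 108 to 46.7 CPM, a log2 ratio of -1.20 (-1.83 to -0.64). Without excess RNA Irf1 fell from 119 to 57.5 CPM, a log2 ratio of -1.02. The Irf1 ratios in T cells and B cells were -0.40 and 0.05, and -0.11 and -0.06 without excess RNA. Ly6a (Sca-1), which lung endothelium and stroma also express, rose from 45.9 to 191 CPM over all members and was not called without excess RNA, where it had 18 and 3 UMIs and a log2 ratio of -1.43 (-4.02 to 0.16). Excess endothelial RNA was in 4 control and 10 fibrosis members, and its part in the Ly6a result was not tested beyond this.

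Immediate-early and heat-shock genes, which tissue digestion also induces, had a median log2 ratio of -0.04 and no call among 18. Jun stood at 63.5 and 127 CPM, and at 38.6 and 45.4 CPM without excess RNA. Hsp90aa1 was at 412 and 521 CPM, and at 388 and 626 CPM without excess RNA, a log2 ratio of 0.69 (0.42 to 0.96). Of 20 genes of glycolysis and hypoxia Pgk1 alone was called higher, and it rose likewise in T cells, at a log2 ratio of 2.40, and in B cells, at 2.78. The median log2 ratio of the list was -0.22, and -0.14 without excess RNA.

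**Figure D4:**
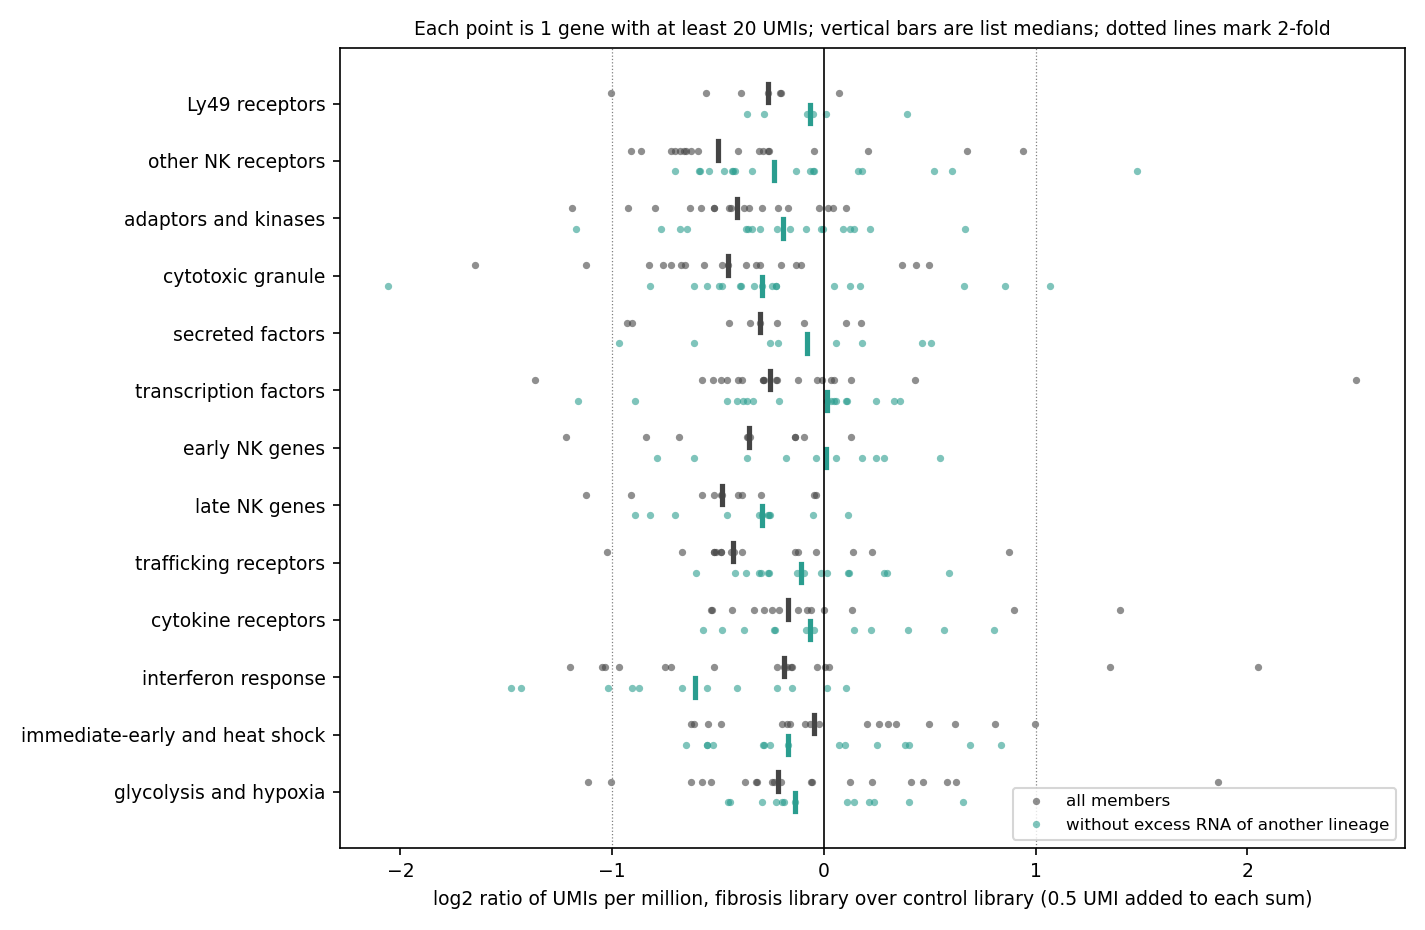
Log2 ratio of CPM in fibrosis over control (horizontal axis) for the tested genes of 13 lists (rows), 1 point per gene, with list medians as vertical bars, for all members (grey) and members without excess RNA (green). Most grey medians of NK lists lie left of 0, granule genes at -0.45 and other NK receptors at -0.50, and the green ones lie nearer 0 for most lists, while interferon response moves to -0.61.

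Proliferation was rare. NK cells with at least 3 UMIs over 10 cell cycle genes at 1000 UMIs were 6 of 355 in control (1.69%, 0.623 to 3.64) and 8 of 185 in fibrosis (4.32%, 1.89 to 8.34), a difference of 2.63 points (-0.49 to 6.79). Unthinned shares were 3.66% and 4.86%, and without excess RNA the thinned ones were 1.79% and 4.13%. T cells had 1.69% and 1.36%, and B cells 0.421% and 1.04%. The difference was within counting error at this number of cells. None of 18 cell cycle genes was called, and Mki67, a proliferation marker, had 24 and 23 UMIs. The rule may miss dividing cells. Without excess RNA and unthinned, 9 control and 5 fibrosis members met it. A subcluster of 70 such members, described below, was led by genes of dividing cells and held 389 CPM of Top2a. The share of dividing cells was not settled by these 2 readings.

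Many of the largest changes over all members were transcripts of other cells. Among the 15 genes with the largest ratios were the haemoglobin genes Hba-a1, Hbb-bs, Hbb-bt and Hba-a2, and the plasma cell genes Jchain and Mzb1. Jchain had 2 UMIs in control and 640 in fibrosis, 99.7% of the latter in 1 cell. All fibrosis UMIs of those 4 haemoglobin genes and 96.4% of those of Mzb1 also came from 1 cell, and of the 495 higher calls 27 had over 50% of their UMIs in 1 cell. Among the 15 smallest ratios were Clec4e, Vcan, F13a1 and Mmp8, genes of monocytes and neutrophils. Markers of epithelium summed to 21642 CPM in control and 52878 CPM in fibrosis over all members, and to 9092 and 6526 CPM without excess RNA. Neutrophil and basophil markers summed to 6664 and 3938 CPM, and to 763 and 348 CPM. The lists of higher genes shared 59 genes, 11.9% of the 495 and 51.3% of the 115, and the lists of lower genes shared 36, or 20.6% and 35.6%.

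Some of the genes that rose in NK cells rose in every lymphocyte class examined. Of the 495 called higher, 129 were also called higher in both T cells and B cells. Without excess RNA in any of the 3 classes, Retnla, a secreted protein of alternatively activated macrophages, had log2 ratios of 5.59 in NK cells, 5.11 in T cells and 5.27 in B cells. AY036118 stood at 4.28, 3.84 and 4.25. Hist1h2ap, a histone gene, stood at 3.83, 2.30 and 4.14. Hsph1, a heat-shock protein, was called in NK cells with a log2 ratio of 2.16 (1.17 to 3.30) on 12 and 28 UMIs, beside 0.40 (-0.18 to 1.00) in T cells and 0.88 (0.05 to 1.71) in B cells. After the mean of the T-cell and B-cell log2 ratios was subtracted from each NK ratio, 231 genes were higher and 270 lower, against 495 and 175 before. The split between higher and lower calls therefore depended on this reference.

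The genes that set NK cells apart from T cells most in both libraries are given as description, since the rule separates these classes. By the lower of the 2 libraries' ratios of NK to T CPM, the 20 highest included Klra4 at 211, Ncr1 at 191, Cma1 at 190 and Klra8 at 147. Ccl4 stood at 40.9, Ccl3 at 31.8 and Gzma at 28.4. Styk1, a kinase-like membrane protein, Khdc1a, Klri2, Serpinb9b, a granzyme inhibitor of the serpin family, and Phactr3 were also among them. Neither the chemokines nor Gzma or Cma1 were read by the rule, although the genes they travel with were.

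Clustering the members without the 6 selection genes gave 7 subclusters, described here over both libraries together because genes that lead them also differ between the libraries. Subcluster 1, with 143 cells, was led by Cma1, Klrg1, Tmem37, Gzmb and Prkch and held 15259 CPM of Gzma. Subcluster 3, with 258 cells, was led by Xcl1, Cd7, Gimap7, Skap1 and Klra7 and held 7753 CPM of Gzma. Cma1, Klrg1 and Gzmb are in the late list and Xcl1 and Cd7 in the early list; no name was given. The other 5 were led by transcripts of other lineages or of division. Subcluster 2 (39 cells) had Vcan, Ly86, Hpse, F13a1 and Ifi204, and subcluster 4 (13 cells) had Cidec, Dennd2a, Mfsd7c, Ltc4s and Axl. Subcluster 5 (30 cells) had Kif11, Clec14a, 2810417H13Rik, Ccna2 and Rrm2. Subcluster 6 (33 cells) had Elf3, Cpm, Tom1l1 and Megf6 among its leading genes, with 92079 CPM of the surfactant gene Sftpc, and subcluster 7 (24 cells) had Gm5483, Cxcr2, Stfa2l1, Retnlg and S100a9. Clustering the members without excess RNA gave 3 subclusters, each with cells of both libraries. The first (236 cells) was led by Ly6c2, Cma1, Itgam, Zeb2 and Fgl2, the second (70 cells) by Stmn1, Tuba1b, Dut, H2afx and Tubb5, genes of dividing cells, and the third (95 cells) had Ltb, Retnla, Emb and Zfp36l1 among its leading genes. A change of state in NK cells and a change in which cells were sampled cannot be told apart with 1 mouse per group.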

How the data were processed

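The deposited values are raw counts of UMIs per gene and cell in 2 matrices. Per the submitters' processing notes they were made with bcl2fastq and Cell Ranger 1.3 on mm10. How cells were called from droplets is not given in the sources used here. The members and gene lists were chosen with earlier results of these data known. UMIs were summed per library and class and scaled to the summed total, 0.5 UMI was added to each sum for log2 ratios, and ratios had conditional binomial intervals. Sums had Poisson intervals and shares Clopper-Pearson intervals; differences of shares combined the latter. Cells were thinned once to 1000 UMIs. The text names genes of 25 lists, the 15 largest and 15 smallest called ratios in each set of members, the 20 genes with the highest NK to T ratio among those with at least 50 NK UMIs, and 5 leading genes per subcluster; a few of these genes are not reported here. Scrublet's own threshold marked 0.0623% and 2.42% of cells, so the top 515 and 386 cells by score, 6.42% and 5.56%, were removed as an alternative; no doublets were removed otherwise. The calling script was tested on simulated data. Positions are from GENCODE M21, which held 27645 of 27998 gene IDs (98.7%), and promoters from RefSeq GRCm38.p6. Python 3.11.15, numpy 2.4.6, scipy 1.17.1, scanpy 1.11.5, igraph 0.11.9, pandas 2.3.3 and matplotlib 3.10.9 were used.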

Additional observations from a re-analysis of the deposited data

How the results depend on the processing

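The NK share difference of -1.76 points was -0.71 with 1 depth floor for both libraries and -0.29 with that floor and cells with Ptprc as the denominator, the latter added after seeing the data. The count of higher genes (495) was 195 when the selection was made after thinning, 115 without members carrying excess RNA, 185 at a minimum of 50 UMIs and 231 with the T-cell and B-cell ratio subtracted. The count of lower genes (175) was 101 without excess RNA, 80 at 50 UMIs and 270 with that subtraction. Over all alternatives the granule median ran from -0.57 to -0.21, the late one from -0.58 to -0.16, the interferon one from -0.61 to -0.15, the glycolysis one from -0.24 to -0.04 and the stress one from -0.17 to 0.14, and the cycling share stayed within its counting interval. Of 3402 pairs of a named gene and an alternative, 18 reversed. Without excess RNA, Hbb-bs was at -1.35, Hbb-bt at -0.62, Hba-a2 at -1.35, Inmt at -1.35, Ccl17 at -0.62, Slurp1 at 0.97, Mmp8 at 0.97 and Ly6a at -1.43. With high doublet scores removed, Hbb-bs was at -2.32, Hbb-bt at -1.10, Hba-a2 at -1.84 and Mmp8 at 1.33. With T-cell and B-cell ratios subtracted, Retnla was at -1.30, Klra1 at 0.55, Cd247 at 0.50, Tmem176a at -0.19 and Pgk1 at -0.73, and with the selection after thinning Tmem176a was at -0.44. Klra1 and Cd247 had few UMIs in B cells, where their ratios carry the subtraction. All intervals around these 18 values spanned 0. Without excess RNA Slurp1 had 0 UMIs in both libraries and Mmp8 1 in each, so their 0.97 reflects only the added 0.5 UMI and the scaling, and the other genes named there except Ly6a had at most 2 UMIs. The other causes were not tested. At this number of cells, 2-fold differences of genes under 20 UMIs were not tested. No paired analysis was possible because each group has 1 mouse.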
